A study of Homo sapiens with 4 samples.

Results

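Binding of the transcription factor c-MYC was examined at the promoters of 42 genes that drive or restrain the cell cycle, out of 19663 protein-coding genes with a protein-coding transcript on the nuclear chromosomes. The 42 genes were a fixed list of cyclins, cyclin-dependent kinases (CDKs), CDK inhibitors, retinoblastoma and E2F proteins, ubiquitin ligase subunits, mitotic kinases and spindle checkpoint genes, and the rule that lists them uses no measured value. The list was nevertheless chosen with earlier results of these data known. A gene was counted as having a promoter peak when the summit of a peak lay within 1 kb of the transcription start of at least 1 of its protein-coding transcripts. The data come from ChIP-seq (chromatin immunoprecipitation with sequencing) of c-MYC, in which DNA bound by a protein is pulled down with an antibody and regions where the fragments pile up are called as peaks. The cells were of a single line, MIA PaCa-2, an established line of human pancreatic ductal adenocarcinoma. They received the solvent DMSO, AMG510 at 100 nM or the MEK inhibitor trametinib at 10 nM for 8 h, and each treatment gave 1 c-MYC library. A further library from the DMSO-treated cells was made with non-specific immunoglobulin (IgG) in place of the c-MYC antibody. The inhibitor libraries are compared with the same DMSO library, and no group was replicated, so no difference below has a replicate check or a test.

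Progress through the cell cycle is driven by CDKs that are switched on by cyclins. D-type cyclins with CDK4 and CDK6, and E-type cyclins with CDK2, phosphorylate the retinoblastoma proteins and thereby free E2F factors to transcribe genes of S phase, whereas B-type cyclins with CDK1 bring about mitosis. c-MYC binds DNA as a dimer with MAX at E-boxes, of which CACGTG is the canonical form, and several cyclin, CDK and E2F genes are textbook MYC targets. Many genes of mitosis carry other promoter elements, among them the CHR (cell cycle genes homology region) bound by the DREAM and MuvB complexes and the CCAAT box bound by NF-Y.

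The libraries were of similar depth, with 22700000 to 24800000 tags recovered as having entered peak calling. The IgG list held 2966 peaks, the DMSO list 9552, the AMG510 list 10378 and the trametinib list 5431. A tag is a read counted once, and its pileup at a summit is a whole number that could be recovered from the values of every peak. The median summit held 10 to 13 tags, and where the background was at its genome-wide value a call needed 7 or 8 tags. Fold enrichment is the pileup over the background, each with 1 tag added. The methods do not name the control used in calling, but wherever the background exceeded its genome-wide value it was a whole number (within 0.05) of the library's own tags per 10 kb, at 100% of such peaks in every list, and it was taken as the background of the same library. Intervals on tags are exact Poisson 95% intervals, intervals on shares are Wilson 95% intervals, and both cover counting error only. For a count of 0, the limit given is 3 counts over the total, which is not a Wilson bound. The pileup at a promoter without a called peak is not known.

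The reference sequence shows which E-boxes lie near the summits of these genes. An E-box near a summit need not lie within the called peak, and the one at BUB1B runs past the end of its peak. The first set holds every canonical E-box within 100 bp of a member's summit apart from the one at CCNE2, in GRCh38 on the plus strand, with CACGTG in capitals. The distance from the summit was 36 bp at PLK1 (AMG510, chr16:23678665-23678724), 10 bp at MDM2 (AMG510, chr12:68808607-68808666), 70 bp at BUB1B (DMSO, chr15:40161410-40161469) and 85 bp at E2F3 (AMG510, chr6:20403507-20403566).
PLK1: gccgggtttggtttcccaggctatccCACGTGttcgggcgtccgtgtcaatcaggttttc
MDM2: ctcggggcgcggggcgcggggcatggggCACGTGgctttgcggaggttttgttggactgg
BUB1B: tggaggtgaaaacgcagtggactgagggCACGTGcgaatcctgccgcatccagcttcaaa
E2F3: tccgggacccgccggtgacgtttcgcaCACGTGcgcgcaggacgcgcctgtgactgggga

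A second set shows the noncanonical E-box CACGCG, in capitals and also read as CGCGTG from the other strand, at 2 of the genes where it lay near a summit. It is 65 bp from the trametinib summit at CKS2 (chr9:89310445-89310504) and 18 bp from the upstream DMSO summit at CCNE1 (chr19:29811571-29811630), both on the plus strand.
CKS2: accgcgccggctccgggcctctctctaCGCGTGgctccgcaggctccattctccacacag
CCNE1: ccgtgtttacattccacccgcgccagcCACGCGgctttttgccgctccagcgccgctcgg

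The third set shows canonical E-boxes just before the start of 2 genes that had no promoter peak in any list, so that the motif and the call can be set side by side. At CDK4 (minus strand, chr12:57752482-57752536) a pair of E-boxes begins 216 and 196 bases before the canonical start. At CCNB1 (plus strand, chr5:69166927-69166987) the E-box begins 196 bases before it.
CDK4: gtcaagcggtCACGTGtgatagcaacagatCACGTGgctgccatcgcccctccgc
CCNB1: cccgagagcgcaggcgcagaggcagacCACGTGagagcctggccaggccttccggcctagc

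Of the 42 genes, 15 had a promoter peak in the DMSO library, against 8 under AMG510, 6 under trametinib and 0 with IgG. The DMSO share was 35.7% (23.0 to 50.8), beside 24.2% of all protein-coding genes. In AMG510 the share was 19.0% (9.98 to 33.3), beside 15.3% of all genes. In trametinib it was 14.3% (6.72 to 27.8), beside 11.8% of all genes. All 3 shares of the cell cycle genes lay above the share of all genes, but each interval holds the background value, so an excess was not detectable with 42 genes. For IgG, 0 of 42 genes allows a share of up to 7.14%, and 0.559% of all genes had an IgG promoter peak. A peak in at least 1 c-MYC list was present at 19 genes, or 45.2% (31.2 to 60.1), beside 31.7% of all genes.

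**Figure D1:**
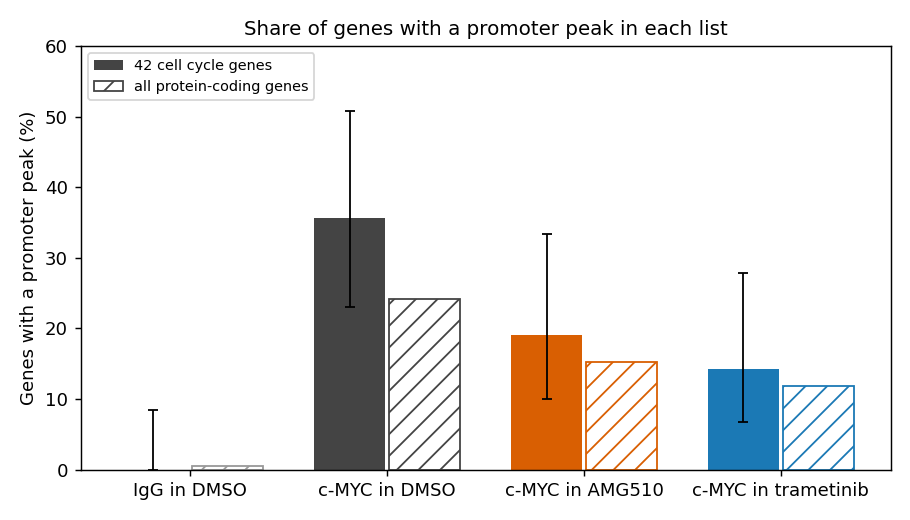
The percentage of genes with a promoter peak in each of the 4 peak lists is drawn for the 42 cell cycle genes (filled bars, with Wilson 95% intervals) and for all 19663 protein-coding genes (hatched bars). The filled bars stand at 0, 35.7, 19.0 and 14.3%, and each interval holds the value of the hatched bar beside it.

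No list held a promoter peak at 23 of the genes. Among the other 19, a peak in DMSO alone was the most frequent pattern, at 9 genes: CCNE1, CCNE2, CDK6, CCNH, CDKN1B, CDC25B, E2F1, CKS1B and BUB1B. These make 21.4% of the 42 (11.7 to 35.9), and 10.9% of all genes had that pattern, a value just below the interval. No interval here is adjusted for the number of shares compared. CCNA2, CDKN2C and MDM2 had one in DMSO and AMG510, AURKB in DMSO and trametinib, and CDC25C and E2F3 in all 3 c-MYC lists. The remaining 4 genes had no DMSO peak, namely RBL1 and CKS2 with one under both inhibitors, PLK1 under AMG510 and CCND3 under trametinib.

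Of the 15 genes with a DMSO promoter peak, 5 also had one in AMG510, or 33.3% (15.2 to 58.3), beside 43.0% of all genes with a DMSO promoter peak. In trametinib 3 of the 15 had one, or 20.0% (7.05 to 45.2), beside 35.2% of all such genes. Among the 27 genes without a DMSO peak, 3 had a peak in AMG510 and 3 in trametinib, each 11.1% (3.85 to 28.1), beside 6.47% and 4.33% of all genes without one. These intervals hold the background shares. The 2 genes with a peak in each c-MYC list make 4.76% of the 42, beside 5.59% of all genes.

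The 19 genes carried 34 promoter peaks, whose fold enrichment ranged from above 9.06% of the peaks of its list (E2F3 at its canonical start in DMSO) to above 95.8% (PLK1 in AMG510). The 18 DMSO peaks held 11 to 32 tags with a median of 15.5, the 9 AMG510 peaks 11 to 22 with a median of 14, and the 7 trametinib peaks 10 to 23 with a median of 17. Fold enrichment had a median of 4.55 in DMSO, 4.95 in AMG510 and 4.79 in trametinib. It was above 5 at CCNA2, CDKN1B, CDKN2C, CDC25C and MDM2 in DMSO (5 genes), at CDKN2C, CKS2 and PLK1 in AMG510 (3 genes) and at RBL1 and CKS2 in trametinib (2 genes). Those counts make 11.9%, 7.14% and 4.76% of the 42 genes, beside 12.1%, 5.75% and 4.87% of all genes. The share of cell cycle genes with such a peak was thus close to the background in every c-MYC list.

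**Figure D2:**
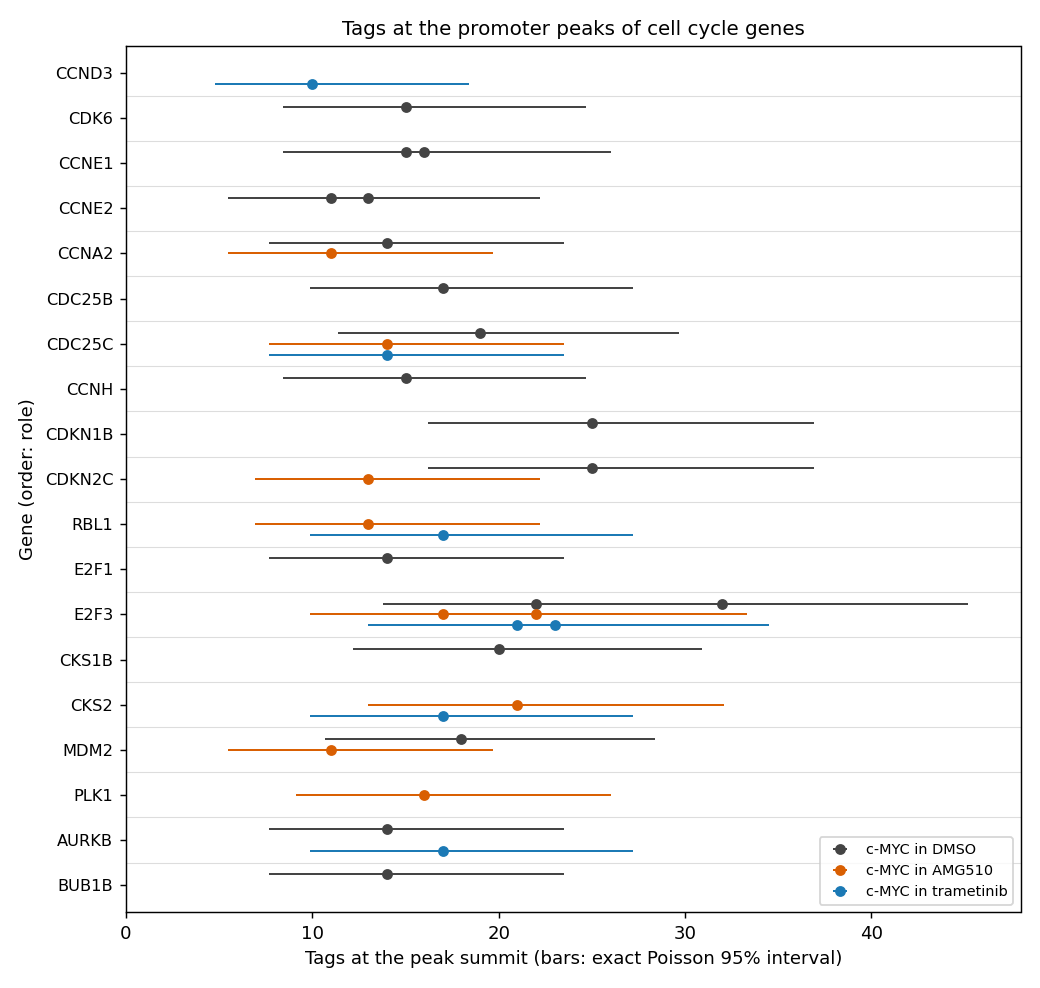
Tags at the summit of each promoter peak are drawn for the 19 genes with a peak in at least 1 c-MYC list, coloured by library and with exact Poisson 95% intervals. Values run from 10 tags at CCND3 in trametinib to 32 tags at E2F3 in DMSO, and within a gene the intervals of the libraries overlap.

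Peak by peak, 6 of the 18 DMSO promoter peaks were overlapped by at least 1 bp by an AMG510 peak, or 33.3% (16.3 to 56.3), beside 33.1% of all DMSO promoter peaks. A trametinib peak overlapped 5 of the 18, or 27.8% (12.5 to 50.9), beside 27.7%. Both shares were close to those of all DMSO promoter peaks. Taking only drug peaks that are themselves promoter peaks of the gene, there were 10 overlapping pairs of a drug and a DMSO peak. The drug summit held fewer tags in 7 pairs, as many in 1 and more in 2, and the counting intervals of the 2 summits overlapped in all 10 pairs. Several pairs came from the same gene. Each tag was extended to 177 bp in DMSO, 157 bp in AMG510 and 163 bp in trametinib. A longer extension lets more tags reach a summit, and its effect on these counts was not tested.

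Among the 5 D-type cyclin and kinase genes, 2 had a promoter peak, each in a different library. CDK6, whose kinase partners the D-type cyclins, had a DMSO peak at chr7:92833313-92833497 with 15 tags (8.40 to 24.7) and a fold enrichment of 4.16. Its summit lay 504 bp from the start of a shorter transcript and 3160 bp downstream of the canonical start, in exon 2. CCND3, which encodes cyclin D3, had a trametinib peak at chr6:41941465-41941649 with 10 tags (4.80 to 18.4) and a fold enrichment of 3.94. That summit was 17 bp from one of its starts and 306 bp from the canonical one, in the first coding exon, and it held the fewest tags of the 34 peaks.

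CCND1, CCND2 and CDK4 had no promoter peak in any list. CCND1, which encodes cyclin D1, came closest. Its DMSO peak at chr11:69641965-69642345, in intron 1, had 16 tags (9.15 to 26.0) and a fold enrichment of 4.11, but the summit was 1068 bp from the nearest start of a coding transcript, just outside the limit of 1 kb. The member just inside the limit was CDC25B, with a summit 816 bp from its nearest start. CDK4, a gene often used as a MYC target, carries the E-boxes printed above and had no peak within 10 kb.

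Of the 4 genes for the E and A cyclins, which act from late G1 into S phase, and their kinase CDK2, 3 had a DMSO peak. CCNE1 (cyclin E1) had 2 DMSO peaks. One, at chr19:29812101-29812286 in the 5′ UTR, had 16 tags (9.15 to 26.0) and a fold enrichment of 4.22, and the other, at chr19:29811348-29811627, had 15 tags and a fold enrichment of 3.94 with its summit 411 bp before the start. CCNE2 (cyclin E2) also had 2 DMSO peaks, of 13 tags (6.92 to 22.2) and 11 tags (5.49 to 19.7), with fold enrichments of 4.96 and 4.20. The first of these, with an E-box 62 bp from its summit, lies 335 bp from the start of NDUFAF6 and 506 bp from that of CCNE2, so its assignment to CCNE2 is uncertain. The second lies 50 bp from a CCNE2 start. Neither gene had a promoter peak in AMG510 or trametinib.

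CCNA2 encodes cyclin A2, the partner of CDK2 in S phase. It had a DMSO peak at chr4:121823648-121823824 with 14 tags (7.65 to 23.5) and an AMG510 peak at chr4:121823487-121823824 with 11 tags (5.49 to 19.7). The fold enrichments were 5.83 and 4.97, above 83.3% and 73.6% of the peaks of the respective lists. The summits were 23 bp apart in the 5′ UTR, 164 and 187 bp after the start, and no trametinib peak was called. CDK2 had no promoter peak in any list and no peak within 10 kb.

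Of the 7 genes for the B cyclins, CDK1 and its regulators, only CDC25B and CDC25C, which encode phosphatases that activate CDKs, had a promoter peak, and at both genes the summits also lay within 1 kb of another gene's start. The CDC25B peak was called in DMSO at chr20:3785886-3786160 with 17 tags (9.90 to 27.2) and a fold enrichment of 4.37. Its summit was 10354 bp upstream of the canonical start and 784 bp from the start of CENPB, the nearer gene.

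At CDC25C a peak was called in all 3 c-MYC lists. The DMSO summit held 19 tags (11.4 to 29.7), the AMG510 summit 14 (7.65 to 23.5) and the trametinib summit 14, with fold enrichments of 5.17, 4.16 and 3.81. The DMSO peak spans chr5:138338229-138338864, and the AMG510 and trametinib peaks, at chr5:138338121-138338529 and chr5:138338324-138338486, both overlap it. The summits lie 210, 80 and 75 bp from the nearest CDC25C start, and 298, 21 and 163 bp from the nearest start of FAM53C on the opposite strand. The nearest CDC25C start differs for AMG510, and in each list it is over 6 kb upstream of the canonical one. The tags cannot be divided between these 2 genes. CCNB1, CCNB2, CDK1, CDC25A and WEE1 had no promoter peak and no peak within 10 kb in any list, so no peak was called at the start of either B cyclin examined or of CDK1.

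The CDK-activating kinase consists of CDK7, cyclin H and MAT1. CCNH, which encodes cyclin H, had a DMSO peak at chr5:87412728-87412933 with 15 tags (8.40 to 24.7) and a fold enrichment of 4.23, with its summit 121 bp after the start in the 5′ UTR. CDK7 had none. An IgG peak of 9 tags lay 6885 bp from its nearest start, in intron 2.

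The CDK inhibitors included the DMSO peak of highest fold enrichment among the 42 genes. CDKN2C encodes p18, an inhibitor of CDK4 and CDK6. Its DMSO peak at chr1:50959837-50960238 had 25 tags (16.2 to 36.9) and a fold enrichment of 6.88, above 92.4% of the list, and its AMG510 peak at chr1:50959984-50960170 had 13 tags (6.92 to 22.2) and a fold enrichment of 5.02, above 78.2%. The summits were 23 bp apart. They lay 633 and 656 bp from the start of a longer CDKN2C transcript, about 10 kb upstream of the canonical start, and 155 and 178 bp from that of FAF1, which is nearer. A trametinib peak overlapped the DMSO peak too, but its summit fell outside 1 kb of CDKN2C.

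CDKN1B encodes p27, an inhibitor of CDK2 complexes, and had a DMSO peak at chr12:12716791-12717104. It had 25 tags (16.2 to 36.9) and a fold enrichment of 5.16, with its summit 429 bp before the start, and the nearest start of another gene, APOLD1, was 8992 bp away. No peak was called there in either inhibitor library. CDKN1A (p21) and CDKN1C (p57) had no peak within 10 kb. CDKN2D (p19) had none at its start. A DMSO peak of 19 tags (11.4 to 29.7) and an AMG510 peak of 16 tags (9.15 to 26.0) lay 3490 and 3272 bp away, downstream of the gene, at 501 and 283 bp from the start of KRI1.

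The retinoblastoma and E2F genes held the peaks of most tags and one of the genes called only under the inhibitors. E2F3 encodes an activating E2F and had a pair of peaks in each of the 3 c-MYC libraries. At the canonical start, the DMSO peak (chr6:20401930-20402429) had 22 tags (13.8 to 33.3), the AMG510 peak (chr6:20401891-20402067) 22 tags and the trametinib peak (chr6:20401913-20402108) 23 tags (14.6 to 34.5). Fold enrichment there was 3.59, 4.95 and 4.79. The pileups were nearly equal, and the background at these summits was 5.40 tags in DMSO, 3.64 in AMG510 and 4.01 in trametinib.

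In intron 1 of E2F3, near the start of a second coding transcript, the DMSO peak (chr6:20403097-20403454) had 32 tags (21.9 to 45.2), the most of all 34 peaks, with a fold enrichment of 4.94. The AMG510 peak (chr6:20403264-20403851) had 17 tags (9.90 to 27.2) and 3.88, and the trametinib peak (chr6:20403220-20403564) 21 tags (13.0 to 32.1) and 4.28. DMSO was the highest of the 3 here, with overlapping intervals. The DMSO and trametinib summits were 35 bp apart, whereas the AMG510 summit lay 279 bp from the DMSO one and near the CACGTG printed above. That CACGTG also lies within the trametinib peak, more than 100 bp from its summit.

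E2F1 encodes another activating E2F. It had a DMSO peak at chr20:33686064-33686393 with 14 tags (7.65 to 23.5) and a fold enrichment of 4.54, 150 bp after the start in the first coding exon, and none under the inhibitors. RBL1 encodes p107, a relative of RB1, and showed the opposite pattern. Its AMG510 peak (chr20:37096058-37096224) had 13 tags (6.92 to 22.2) and its trametinib peak (chr20:37096049-37096232) 17 tags (9.90 to 27.2), with fold enrichments of 4.58 and 6.09, the latter above 91.1% of the trametinib list. The summits were 35 bp apart, 121 and 156 bp before the start. RB1, RBL2, E2F2 and E2F4 had no promoter peak, and the only peak within 10 kb of them was one of 14 tags in AMG510, 7211 bp upstream of E2F4 and 904 bp from the start of MATCAP1.

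Of the 5 genes for ubiquitin ligase subunits and CKS proteins, 3 had a promoter peak. CKS1B and CKS2 encode related small proteins that bind CDKs, CKS1 also serving the SCF-SKP2 ligase that degrades p27. CKS1B had a DMSO peak (chr1:154974664-154974894) with 20 tags (12.2 to 30.9) and a fold enrichment of 4.57, 80 bp after the start in the first coding exon and 366 bp from the start of SHC1. CKS2 had an AMG510 peak (chr9:89310441-89310801) with 21 tags (13.0 to 32.1) and a trametinib peak (chr9:89310377-89310668) with 17 tags (9.90 to 27.2). Fold enrichments at CKS2 were 5.97 and 5.40, above 93.5% and 80.5% of the respective lists, and the summits, 110 bp apart, lay 548 and 658 bp before the start. The 2 CKS genes were thus called in different libraries, CKS1B in DMSO and CKS2 under both inhibitors.

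MDM2 encodes the ubiquitin ligase of p53. Its DMSO peak (chr12:68808063-68808667) had 18 tags (10.7 to 28.4) and a fold enrichment of 6.49, above 90.0% of the list, and its AMG510 peak (chr12:68808512-68808669) had 11 tags (5.49 to 19.7) and 4.94. The peaks overlapped by 156 bp, but the summits were 292 bp apart, the DMSO one in the 5′ UTR and the AMG510 one in intron 1, 10 bp from the E-box printed above. That E-box also lies within the DMSO peak, more than 100 bp from its summit. SKP2 had no peak within 10 kb. FBXW7, whose product marks cyclin E for degradation, had only an IgG peak of 12 tags (6.20 to 21.0) lying 3706 bp upstream.

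Among the 7 mitotic kinase and spindle checkpoint genes, PLK1, AURKB and BUB1B had a promoter peak. PLK1 encodes polo-like kinase 1. Its peak was called in AMG510 alone (chr16:23678539-23678728), with 16 tags (9.15 to 26.0) and a fold enrichment of 6.46, above 95.8% of the AMG510 list and the highest rank among the 34 peaks. The summit lay 234 bp before the start and 36 bp from an E-box. AURKB (aurora kinase B) had a DMSO peak (chr17:8210401-8210577) with 14 tags (7.65 to 23.5) and a trametinib peak (chr17:8210395-8210597) with 17 tags (9.90 to 27.2), at fold enrichments of 3.99 and 4.86 and with summits 15 bp apart in intron 1. BUB1B, which encodes the checkpoint protein BUBR1, had a DMSO peak (chr15:40161246-40161438) with 14 tags and a fold enrichment of 4.83, 299 bp after the start in intron 1.

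AURKA, BUB1, MAD2L1 and CDC20 had no promoter peak. An AMG510 peak of 15 tags (8.40 to 24.7) with a fold enrichment of 6.23 lay 8660 bp upstream of BUB1. Near CDC20, peaks of 20 tags in DMSO and 12 tags in AMG510 lay 8241 and 8909 bp downstream of its nearest start, at 484 and 89 bp from the start of ELOVL1. In all, 23 genes had no promoter peak in any list. Of these, 7 had a peak of some list within 10 kb, 5 of them a c-MYC peak, and 16 had none. The same counts over all genes were not computed, so it is not known whether these are unusual.

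**Figure D3:**
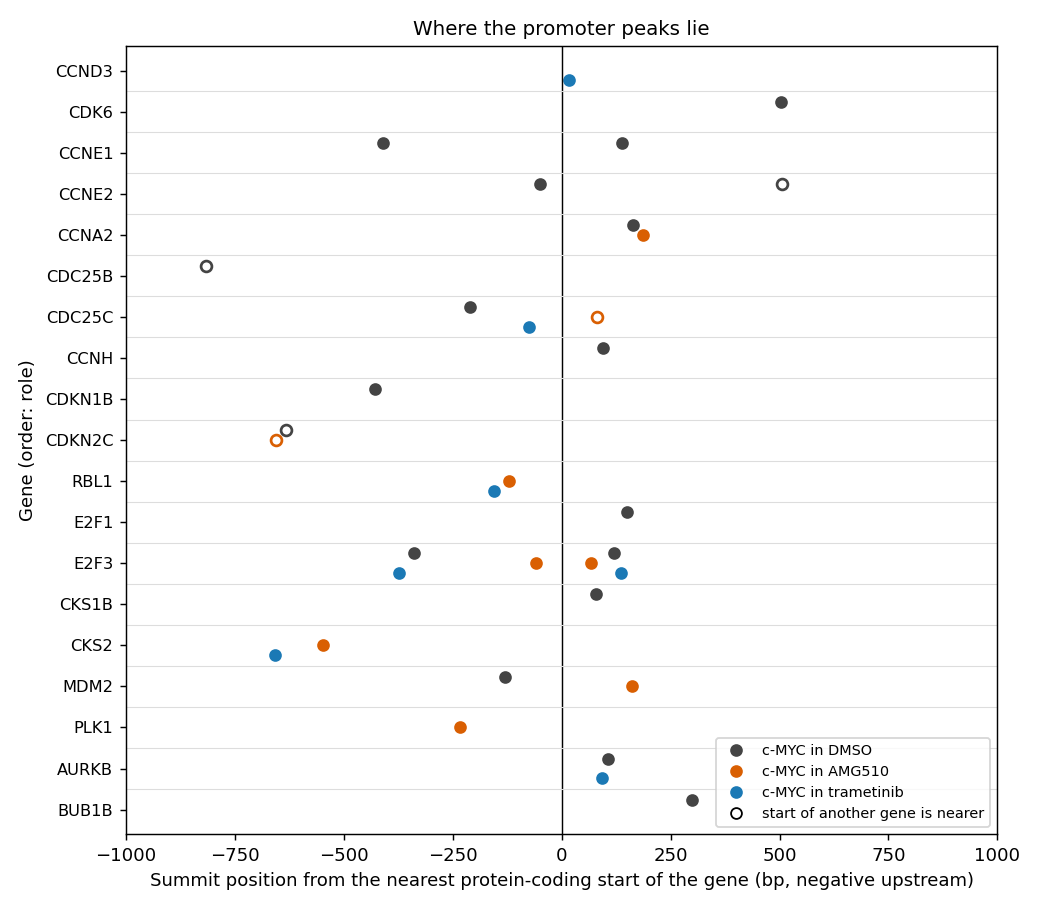
The position of each promoter peak's summit is drawn as its distance (bp) to the closest coding start of its gene, upstream to the left, for the 3 c-MYC libraries, with open circles where the start of another gene is nearer. Of the 34 summits, 27 lie within 500 bp of a start of the gene, and 5 circles are open.

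Another gene's start was nearer at 5 of the 34 summits, at CCNE2, CDC25B and CDC25C and in both lists at CDKN2C. When a peak counted only for the gene whose start was nearest, 13 of the 42 genes kept a promoter peak in the DMSO list, 6 did so in AMG510 and 6 in trametinib. These are 31.0%, 14.3% and 14.3%, beside 21.5%, 13.6% and 10.3% of all genes counted in that way. The genes lost from the DMSO count were CDC25B and CDKN2C, and those lost from AMG510 were CDC25C and CDKN2C.

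The E-box was then set against the calls. Within 100 bp of the summit, CACGTG (searched on both strands, which read alike) was present at 2 of 18 promoter peaks in DMSO, at CCNE2 and BUB1B. That is 11.1% (3.10 to 32.8), beside 16.9% of all DMSO promoter peaks. In AMG510 it was present at 3 of 9, at PLK1, MDM2 and E2F3, or 33.3% (12.1 to 64.6), beside 14.4%. In trametinib it was present at 0 of 7, which allows a share of up to 42.9%, beside 17.3%. With so few peaks, each interval or limit holds the background share. Counting CACGTG or CACGCG on either strand gave 5 of 18 in DMSO (27.8%, beside 37.0%), 3 of 9 in AMG510 (33.3%, beside 32.5%) and 2 of 7 in trametinib (28.6%, beside 35.9%).

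E-boxes near the start were found at genes with and without a peak. CACGTG lay within 1 kb of a coding start at 24 of the 42 genes, or 57.1%, beside 41.1% of all genes. Genes with several coding starts, such as CDK4 with 9, could have more sequence searched, and no interval was computed for the shares in this paragraph. A DMSO peak was called at 8 of these 24 (33.3%, beside 32.8% of all genes with such an E-box) and at 7 of the 18 without one (38.9%, beside 18.3%). The genes with most of these E-boxes were CDK4 with 5 and WEE1 with 4, and neither had a peak in any list. CCND2, CCND3 and CDKN2C had 3 each, of which CCND2 had no promoter peak, CCND3 one in trametinib and CDKN2C one in DMSO and AMG510.

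The promoters were also searched for the elements described above. Many cell cycle genes are known to carry such elements, so a share above that of all genes is not an independent finding. In the window from 250 bases before to 50 bases after the canonical start, the CHR element TTTGAA was present on either strand at 15 of 42 genes, or 35.7% (23.0 to 50.8), beside 11.4% of all genes. CCAAT was present at 26, or 61.9% (46.8 to 75.0), beside 36.1%. An E2F-type word (TTTCCCGC, TTTGGCGC, TTTCGCGC or TTTGCCGC) was present at 9, or 21.4% (11.7 to 35.9), beside 4.35%. These 3 intervals lie above the share of all genes. CACGTG was present at 7, or 16.7% (8.32 to 30.6), beside 8.75%, and CACGCG at 4, or 9.52% (3.77 to 22.1), beside 15.3%, where the difference was not detectable. Each word was searched on both strands and counted separately, and words may share bases.

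The CHR element began 20 to 40 bases before the canonical start at 7 of the 15 genes that have it (46.7%, 24.8 to 69.9), beside 7.91% of all genes with one, a range chosen after the positions were seen. At the others it lay elsewhere, as at AURKA (3 bases before), MAD2L1 (24 bases after) and CDC20 (178 and 65 bases before). To show the shared place, 4 of the 7 promoters are printed from 100 bases to 1 base before the canonical start in the direction of the gene. TTTGAA and CCAAT are in capitals, as TTCAAA or ATTGG where they lie on the opposite strand. The element begins 29 bases before the start at CCNB2 (plus strand, chr15:59105046-59105145), PLK1 (plus strand, chr16:23678789-23678888) and CKS2 (plus strand, chr9:89311095-89311194), and 39 bases before it at AURKB (minus strand, chr17:8210576-8210675).
CCNB2: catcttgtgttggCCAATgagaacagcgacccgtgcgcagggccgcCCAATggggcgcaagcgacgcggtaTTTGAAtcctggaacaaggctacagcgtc
PLK1: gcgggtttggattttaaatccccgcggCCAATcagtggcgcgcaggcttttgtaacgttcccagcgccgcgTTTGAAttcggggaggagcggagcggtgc
CKS2: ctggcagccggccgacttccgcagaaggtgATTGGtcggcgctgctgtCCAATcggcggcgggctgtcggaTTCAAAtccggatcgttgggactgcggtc
AURKB: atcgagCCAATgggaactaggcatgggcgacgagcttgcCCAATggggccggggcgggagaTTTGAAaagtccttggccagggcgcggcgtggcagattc

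At RBL1 (minus strand, chr20:37095998-37096057) and E2F1 (minus strand, chr20:33686386-33686445) the 60 bases before the start hold 2 E2F-type words each, in capitals and on the opposite strand where they read GCGGCAAA. The c-MYC peak of RBL1, under both inhibitors, and that of E2F1, in DMSO, have no CACGTG or CACGCG within 100 bp of the summit.
RBL1: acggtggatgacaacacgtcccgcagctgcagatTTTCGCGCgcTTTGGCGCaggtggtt
E2F1: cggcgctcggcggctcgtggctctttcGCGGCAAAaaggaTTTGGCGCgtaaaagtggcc

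**Figure D4:**
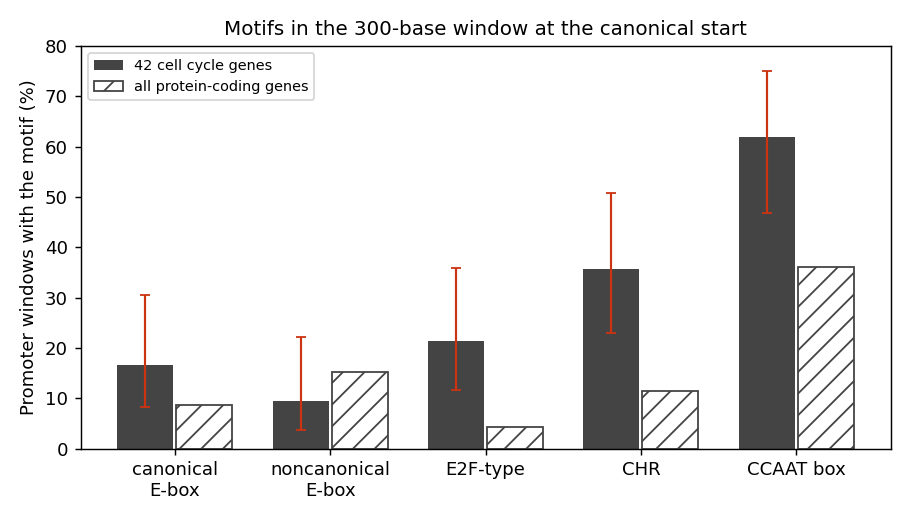
The percentage of promoter windows (250 bases before to 50 after the canonical start) that hold each motif is drawn for the 42 cell cycle genes (filled bars, Wilson 95% intervals) and for all protein-coding genes (hatched bars). The CHR element, the CCAAT box and the E2F-type words stand at 35.7, 61.9 and 21.4% against 11.4, 36.1 and 4.35%, whereas the intervals of both E-box forms hold the value of all genes.

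Genes with and without a call both carried these elements. The elements were sought at the canonical start, whereas a peak at any coding start of the gene was counted. Of the 15 genes with a CHR element, 5 had a DMSO peak (33.3%, 15.2 to 58.3), beside 15.9% of all genes with the element, and 8 had no peak in any list. For CCAAT it was 11 of 26 (42.3%, 25.5 to 61.1), beside 22.0%, with 12 in no list. For the E2F-type words it was 3 of 9 (33.3%, 12.1 to 64.6), beside 31.2%, with 5 in no list. Only the CCAAT interval lies above its background among these 3. For the counts with no peak in any list, no share over all genes was computed. The CCAAT count includes CDC25B, CDKN2C and CDC25C, whose DMSO summits lay 10354, 10133 and 6761 bp upstream of the canonical start. It also includes CCNE2, with DMSO summits 971 and 1527 bp upstream of that start, and CDKN1B, with one 429 bp upstream. All of these summits lay outside the window, so the interval does not place the peaks at a CCAAT box. CDC25C is also in the CHR count. Of the 7 genes with CACGTG in this window, 2 had a DMSO peak (CDK6 and CDKN2C), or 28.6% (8.22 to 64.1), beside 36.7%, PLK1 had one in AMG510, and CCNB1, CDK4, CDK7 and WEE1 had none in any list. The DMSO summits of CDK6 and CDKN2C lay 3160 and 10133 bp from the canonical start, outside this window. For 3 of the 4 genes with CACGCG there (CCNE2, CDKN1B and CKS1B) a DMSO peak was called, or 75.0% (30.1 to 95.4), beside 38.1%, and for CDKN1A it was not. The DMSO summits of CCNE2 and CDKN1B lay outside this window, with no CACGCG within 100 bp. At CKS1B the word lay 81 bp from the summit.

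A further 69 genes of the cell cycle, among them other cyclins and CDKs, subunits of the anaphase-promoting complex and of the MuvB complex, were counted in the same way. The DMSO list held a promoter peak at 28 of them (40.6%), the AMG510 list at 17 (24.6%), the trametinib list at 14 (20.3%) and the IgG list at 1 (CDK8). The IgG share was 1.45%, beside 0.559% of all genes, and CDK8 is also among the 14 genes of the trametinib list. The intervals of the c-MYC shares were 29.8 to 52.4, 16.0 to 36.0 and 12.5 to 31.2%, and each lay above the share of all genes given above (24.2, 15.3 and 11.8%). These genes were chosen with earlier results of these data known, so no excess can be concluded from these intervals. Of the 28, 12 also had one in AMG510 (42.9%, 26.5 to 60.9) and 8 in trametinib (28.6%, 15.3 to 47.1), intervals that hold the 43.0% and 35.2% of all genes with a DMSO promoter peak. TFDP2, which encodes an E2F partner, ANAPC1, PLK2, CUL1 and MDM4 had one in all 3 c-MYC lists. The largest fold enrichments in DMSO were at CDK13 (6.48, 26 tags), PLK3 (6.12, 19 tags), FBXO5 (5.98, 20 tags), MYBL2 (5.90, 24 tags) and ANAPC7 (5.80, 16 tags). Of these, CDK13 and MYBL2 also had an AMG510 peak, at 3.90 and 3.39, and FBXO5 a trametinib peak, at 4.31.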

How the data were processed

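Peak lists of 4 ChIP-seq libraries, 1 per group, were used, with groups taken from the sample titles. The authors trimmed reads with Trimmomatic 0.39, aligned them with BWA 0.7.17 to GRCh38, removed duplicates with Picard and called peaks for each library with MACS2 2.2.7.1. Each deposited list gives, per peak, a score (−log10 q times 10), the fold enrichment as a ratio to background, and −log10 values of the p-value and of the q-value, down to q = 0.05. Whole tags were solved from the deposited fold enrichment and p-value (100% of peaks within 0.001 of −log10 p), and tested on simulated data. Both mates of a pair can count as tags, so intervals are too narrow. Gene starts were from GENCODE 44 and sequence from GRCh38. The analysis used Python 3.11.15, scipy 1.17.1 and pysam 0.24.0.

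All 42 genes were named, those without a promoter peak with any peak within 10 kb. Of the further 69 genes, the 5 of largest DMSO fold enrichment were named. Members and lists were chosen with earlier results of these data known. The alternatives were other distances, start sets, thresholds, overlaps and motif windows. What AMG510 inhibits is not reported here.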

Additional observations from a re-analysis of the deposited data

Results flagged for a closer look

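At 2 genes the strongest promoter peak was higher than in DMSO under one inhibitor and lower, or not called, under the other. At E2F3 its fold enrichment was 4.94 in DMSO, 4.95 in AMG510 and 4.79 in trametinib, a spread far inside the counting error, and in AMG510 and trametinib the strongest peak was the one at the canonical start, not the one in intron 1. At AURKB it was 3.99 in DMSO and 4.86 in trametinib, with no peak called in AMG510, where the pileup is not known. Neither difference was tested, since each value rests on 1 library.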

How the results depend on the processing

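No paired analysis was possible because a single library stood for each group, which also left no replicate to omit. The 11 counts were recomputed 62 times, and 44 of these values lay within 1.5 times of the reported count while 18 moved beyond it. The counts of genes with a promoter peak depended on the peak threshold. With only peaks of fold enrichment above 5, the DMSO list kept 5 genes, that of AMG510 3 and that of trametinib 2, and a score above 60 left the same numbers (5, 3 and 2). The 5 genes shared by DMSO and AMG510 became 1 at either threshold and 3 with canonical starts alone. The 3 shared by DMSO and trametinib became 0 at a fold enrichment above 5 and 1 at a score above 60. Counting a peak only for the nearest start, an alternative chosen after seeing the data, left 3 genes shared by DMSO and AMG510, and leaving out transcripts with an incomplete start was also chosen then. With a reciprocal overlap of 50%, the DMSO peaks overlapped went from 6 to 1 in AMG510 and from 5 to 2 in trametinib, and DMSO peaks with a fold enrichment above 5 left 2 in trametinib. CACGTG near a DMSO summit went from 2 peaks to 0 within 50 bp, and with CACGCG counted to 5 in DMSO and 2 in trametinib. Fewer peaks enter under the stricter thresholds and overlaps, and otherwise the cause was not tested. At 10 to 32 tags a summit, the counting intervals overlapped in all 10 pairs of overlapping DMSO and drug peaks, and genes called in 1 library have no value in the others.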
